A study of Mus musculus with 8 samples.

Results

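Ly6C-high monocytes (MCs) of db/db mice were compared with Ly6C-high MCs of control (CT) mice, using 3 of the 8 libraries analysed. T2DM Ly6C-high MCs had 1 library and CT Ly6C-high MCs had 2. The T1DM libraries set beside them are of C57/BL6 mice treated with streptozotocin (STZ), which destroys insulin-producing beta cells. T2DM mice were db/db mice, which are homozygous for a mutation of the leptin receptor. CT mice were wild type C57/BL6 mice. All were male and were killed at 20 to 22 weeks of age. The cells were sorted from peripheral blood as CD11b+ Ly6G- Ly6C-high, and RNA of 5 mice per group was pooled before sequencing, so a library stands for a pool and not for a mouse. Sequencing was done in duplicate from a pool. The 2 CT libraries may thus differ by less than separate mice would, and their spread may be technical. CT libraries were run on a NextSeq 500 and T2DM on a HiSeq 4000, so sequencer and genotype cannot be told apart in any difference given here. The strain background of the db/db mice is not given in the labels, so strain and genotype cannot be told apart either.

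Every one of the 16486 entries of the deposited table was compared. Values are log2 expression values, and a difference is the T2DM value minus the mean of both CT values, so that a difference of 1 is a 2-fold change. With 1 T2DM library the differences given here carry no significance test. A limma fit over all 8 libraries, which lends T2DM the spread of the CT pairs, was run as an alternative and called 0 genes at an adjusted p under 0.01 and a difference over 1, against 1245 higher and 1449 lower at an unadjusted p under 0.05. The unadjusted counts carried no limit on the size of the difference. A gene is called past the rule where T2DM lies more than 1 beyond both CT libraries on the same side. By that rule 579 genes were higher in T2DM, which is 3.51% of all entries, and 849 were lower, which is 5.15%. Both shares are the background for the T2DM Ly6C-high list counts below. The level of a gene is the mean of its T2DM value and its CT mean. Among the 5336 genes with a level of at least 5, 67 were higher (1.26%) and 101 lower (1.89%).

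The spread between the CT libraries depended on the level. They differed by more than 1 in 14 of the 5336 genes with a level of at least 5 and in 2265 of the 11150 below it. In the first set the absolute CT replicate difference had a median of 0.13 and a 90th percentile of 0.40. The absolute difference of T2DM from CT had a median of 0.23 there. Over the same genes the signed difference had an SD of 0.48 for T2DM and of 0.29 for the T1DM Ly6C-high library against the same CT pair. Its median over all genes was 0.02, in values whose scaling before deposit is not stated.

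Ly6C-high MCs are the classical MCs of the mouse, which leave the bone marrow, enter inflamed tissue and can become macrophages or dendritic cells. Ly6C-low MCs patrol the vessel wall and largely arise from Ly6C-high MCs. Type I interferons act through the receptor chains Ifnar1 and Ifnar2, the kinases Jak1 and Tyk2 and transcription factors that include Stat2 and Irf9 and bind an interferon-stimulated response element before the genes they switch on. Resting blood MCs carry a low tonic interferon signal that keeps these genes expressed without infection. The db mutation disrupts signalling by the long form of the leptin receptor, and the mice become obese and diabetic.

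The T2DM library held the markers of its label. Ly6c2, which encodes the Ly6C antigen of the sort, was at 8.61 and 8.56 in CT and 8.58 in T2DM, a difference of -0.01, against 4.07 and 2.69 in the CT Ly6C-low libraries. Ccr2, the receptor that lets classical MCs leave the marrow, was at 10.81 and 10.76 in CT and 11.37 in T2DM, a difference of 0.58. Lepr, the leptin receptor, was near the bottom of the range with -1.15 and -0.12 in the CT libraries and -2.01 in T2DM (difference -1.38). It did not pass the rule, and a value over the whole gene does not test the db mutation.

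**Figure D1:**
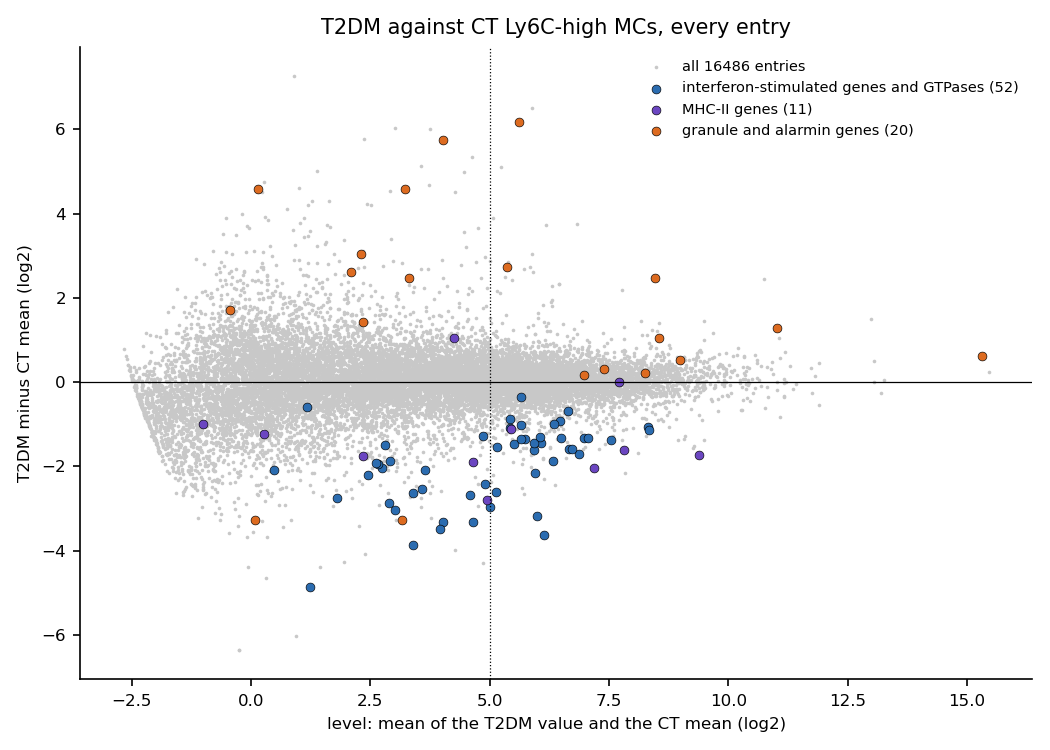
Each point is 1 of the 16486 entries, with its level (log2) on the horizontal axis and the T2DM minus CT difference (log2) on the vertical axis, and the dotted line marks a level of 5. All 52 interferon-stimulated and GTPase genes (blue) lie below 0, and 18 of the 20 granule and alarmin genes (orange) lie above it, with MHC-II genes in purple.

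The widest shared difference was in genes that interferons switch on. All 38 interferon-stimulated genes on the list were lower in T2DM than in both CT libraries, and 33 of them passed the rule, where 5.15% of all entries did so in that direction. Their median difference was -1.90, against 0.02 over all genes, and they ran from -4.87 to -0.69. The 5 that did not pass were Parp14, Xaf1, Ddx58, Dhx58 and Irf9. Over the 23 members with a level of at least 5, 18 passed.

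The largest differences were in the antiviral effectors. Oasl2, of the family of oligoadenylate synthetase proteins that sense double-stranded RNA, was at 8.03 and 7.87 in the CT libraries and 4.32 in T2DM (difference -3.63). Oas3, of the same family, was at 7.58 and 7.61 in the CT libraries and 4.41 in T2DM (difference -3.18). Oas2 was at 6.52 and 6.46 in the CT libraries and 3.52 in T2DM (difference -2.97). In all of them the CT pair differed far less than T2DM differed from either. Ifit3, an inhibitor of viral RNA translation, was at 5.64 and 5.72 in the CT libraries and 2.36 in T2DM (difference -3.32). Ifit1 was at 4.78 and 4.94 in the CT libraries and 2.33 in T2DM (difference -2.53) and showed the same order. Isg15, a ubiquitin-like protein joined to other proteins after interferon, was at 4.44 and 4.20 in the CT libraries and 1.45 in T2DM (difference -2.87). Rtp4 was at 5.73 and 5.69 in the CT libraries and 2.23 in T2DM (difference -3.49). For these the T2DM value was below the level of every other Ly6C-high library, T1DM included. Smaller differences were found for Rsad2, the antiviral enzyme viperin, at 7.83 and 7.64 in the CT libraries and 6.02 in T2DM (difference -1.71). Mx1, an antiviral GTPase, was at 6.87 and 7.22 in the CT libraries and 4.88 in T2DM (difference -2.17). Cxcl10, a chemokine for T cells, was at 3.99 and 3.29 in the CT libraries and 1.70 in T2DM (difference -1.94) with a wider gap between the CT libraries.

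The factors that carry the signal were lower as well. Stat2, a factor of type I interferon signalling, was at 7.60 and 7.31 in the CT libraries and 5.87 in T2DM (difference -1.58). Irf9, which binds DNA as the partner of Stat2, was at 7.06 and 6.92 in the CT libraries and 6.30 in T2DM (difference -0.69). Irf7, itself an interferon target that amplifies the response, was at 7.23 and 7.30 in the CT libraries and 5.39 in T2DM (difference -1.87) and thus stood with the effectors. The RNA sensors Ifih1 and Ddx58 differed by -1.33 and -0.93.

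A further list held 17 genes, Ifih1 and Ddx58 aside. Most are receptors, kinases, sensors and adaptors that act above the interferon-stimulated genes. The rest are the transcription factors Irf1, Irf3, Irf5 and Irf8 and the feedback inhibitor Socs1. In this mixed list 0 passed the rule in either direction and 9 lay below both CT libraries, with a median difference of -0.15. Ifnar1 was at 7.32 and 7.63 in the CT libraries and 7.57 in T2DM (difference 0.10), inside the CT pair. Ifnar2 was at 7.93 and 7.89 in the CT libraries and 7.88 in T2DM (difference -0.03). Both chains of the type I receptor thus lay within the CT pair or at its edge. Jak1 was at 8.90 and 9.05 in the CT libraries and 8.65 in T2DM (difference -0.32) and Tyk2 differed by -0.17. Tlr7, the sensor of single-stranded RNA in endosomes, had the largest difference of the list, at 8.40 and 8.36 in the CT libraries and 7.68 in T2DM (difference -0.70). The DNA adaptor Tmem173 (STING) was at 6.51 and 6.60 in the CT libraries and 6.56 in T2DM (difference 0.00).

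Interferon-inducible GTPases, which attack the vacuoles of intracellular pathogens and respond strongly to interferon gamma, were lower as well. All 14 were below both CT libraries, 11 passed the rule, and the median was -1.40. Tgtp2 was at 5.43 and 5.22 in the CT libraries and 1.45 in T2DM (difference -3.87). It shares 90.5% of its 31-base sequences with other genes, mostly Tgtp1, so how the estimate was split between them is uncertain. Irgm1, which controls the other members of its family, was at 6.33 and 6.33 in the CT libraries and 4.97 in T2DM (difference -1.36). Gbp2 was at 5.91 and 6.06 in the CT libraries and 4.88 in T2DM (difference -1.10). These last values separate cleanly from a CT pair that hardly differed. Gbp7, at 5.76 and 5.90 in the CT libraries and 5.47 in T2DM (difference -0.36), and Iigp1, at 1.81 and 1.15 in the CT libraries and 0.89 in T2DM (difference -0.59), did not pass. The receptor chains for interferon gamma, Ifngr1 and Ifngr2, differed by 0.15 and 0.08.

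**Figure D2:**
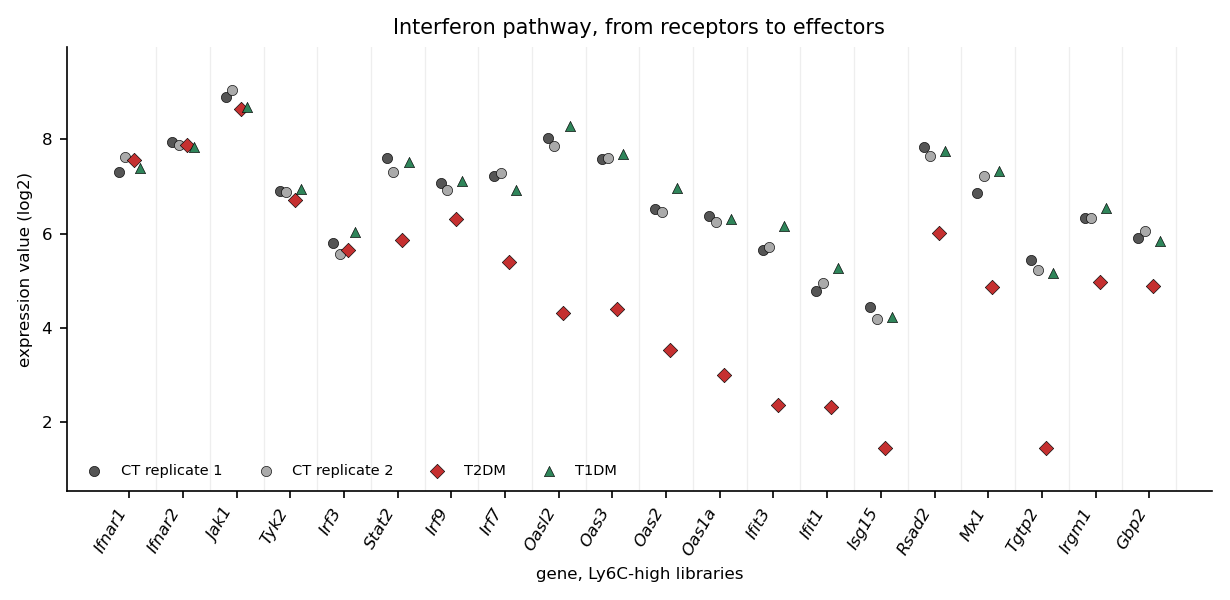
Log2 expression values of 20 interferon pathway genes in the Ly6C-high libraries, 1 point per library. T2DM (red diamonds) overlaps the CT libraries (grey circles) or lies close to them for receptors and kinases on the left and lies below them from Stat2 to Gbp2, and T1DM (green triangles) stays near CT.

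Several families on these lists hold close copies. Oas1a shares 68.8% of its 31-base sequences with other genes, mostly Oas1g, and Ifit3 shares 61.8%, mostly with Ifit3b. Both members of each pair were lower in T2DM, with differences of -3.31 and -3.03 for the Oas1 pair and of -3.32 and -4.87 for the Ifit3 pair. Oasl2, Oas3 and Isg15 share 1.23%, 2.04% and 12.8%.

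The 250 bases before the gene start were read from RefSeq (GRCm38.p6, the same build as the mm10 of the labels) for 11654 measured genes with an entry. They were searched on both strands for GAAA repeated after any 2 bases (TTTC repeated likewise on the other strand), the core of the interferon-stimulated response element, overlapping matches included. It was present in 410 of them (3.52%), in 13 of 28 interferon-stimulated genes and in 9 of 9 GTPases with an entry. The stretches below, from genes named above, show these letters in capitals within their surroundings, written 5' to 3' on the strand of the gene.
Ifit3 (chr19:34583343-34583446, plus strand): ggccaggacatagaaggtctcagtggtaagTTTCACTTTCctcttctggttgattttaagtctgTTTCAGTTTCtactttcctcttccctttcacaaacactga
Ifit3b (chr19:34607739-34607842, plus strand): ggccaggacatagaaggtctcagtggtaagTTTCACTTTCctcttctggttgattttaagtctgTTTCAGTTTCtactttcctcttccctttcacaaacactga
Oas3 (chr5:120777695-120777764, minus strand): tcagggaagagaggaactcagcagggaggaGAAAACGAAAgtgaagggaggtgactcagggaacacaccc
Oas1a (chr5:120907526-120907575, minus strand): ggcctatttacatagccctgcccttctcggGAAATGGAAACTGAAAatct
Isg15 (chr4:156200845-156200926, minus strand): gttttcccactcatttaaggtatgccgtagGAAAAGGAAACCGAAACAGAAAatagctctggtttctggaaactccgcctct
Rsad2 (chr12:26456533-26456602, minus strand): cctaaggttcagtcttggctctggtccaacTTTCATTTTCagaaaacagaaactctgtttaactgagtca
Tgtp2 (chr11:49064243-49064312, minus strand): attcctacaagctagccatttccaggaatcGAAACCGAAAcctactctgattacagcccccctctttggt
Irgm1 (chr11:48871421-48871480, minus strand): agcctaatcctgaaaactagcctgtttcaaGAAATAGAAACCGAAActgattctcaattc
Gbp2 (chr3:142620574-142620643, plus strand): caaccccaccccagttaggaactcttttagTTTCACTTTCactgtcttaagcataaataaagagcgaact
The first 2 stretches, of Ifit3 and Ifit3b, are identical in sequence. Overlapping matches run on as 1 longer capital run in Oas1a, Isg15 and Irgm1.

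The motif was also followed over all genes, as a description. Of the 410 genes with it, 55 (13.4%) were lower in T2DM past the rule and 7 (1.71%) higher. Of the 11244 genes without it, 439 (3.90%) were lower and 356 (3.17%) higher. Leaving out the interferon-stimulated and GTPase lists, 35 of 388 genes with the motif were lower (9.02%). Genes of the receptor and sensor list and of MHC class I presentation were kept in. The median difference of those 388 genes was -0.01. A match to these letters is a description and not a binding site.

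Side by side with the other diabetic libraries, the interferon genes of T2DM Ly6C-high MCs stood apart. In the T1DM Ly6C-high library, which was run on the same sequencer as T2DM and is compared with the same CT libraries, the median difference of the 38 interferon-stimulated genes was 0.04, and 1 was lower past the rule, where 2.58% of all entries were. Set against T1DM in place of CT, the T2DM median was -2.02. Oasl2 was at 8.27 in T1DM against 4.32 in T2DM. In T2DM Ly6C-low MCs, compared with their own CT libraries, the median was -0.61, with 29 of 38 lower and 7 past the rule (3.6% of all entries). For the GTPases that median was -0.97, with 13 of 14 lower. In CT mice these genes had higher values in Ly6C-high than in Ly6C-low MCs, for example Oasl2 with 4.78 and 5.11 in CT Ly6C-low MCs. In T2DM Ly6C-high MCs, 21 of the 38 lay below both CT Ly6C-low libraries.

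MHC class I presentation, which interferons also raise, was lower by a smaller amount. 16 of 18 genes were lower, 4 passed the rule, and the median was -0.60. Tap1, a chain of the peptide transporter, was at 7.22 and 7.23 in the CT libraries and 5.37 in T2DM (difference -1.85). Nlrc5, the transactivator of class I genes, was at 6.61 and 6.85 in the CT libraries and 5.00 in T2DM (difference -1.73). H2-K1, a class I heavy chain, was at 9.76 and 9.73 in the CT libraries and 8.41 in T2DM (difference -1.34). In each the T2DM value lay more than 1 below both CT libraries. H2-Q7 differed by -1.94, but 39.1% of its 31-base sequences occur in other genes. For H2-K1 that share was 22.8%, mostly with H2-Q7. H2-K2, a class I gene that is not on the list, was higher at 3.89 and 4.24 in the CT libraries and 6.22 in T2DM (difference 2.16), with 16.6% of its 31-base sequences shared. A strain difference in these genes cannot be told apart from genotype, here or for the MHC-II genes. B2m, the light chain of class I molecules, was at 11.46 and 11.54 in the CT libraries and 10.68 in T2DM (difference -0.82). The immunoproteasome subunits Psmb8, Psmb9 and Psmb10 differed by -0.48, -0.04 and -0.24.

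MHC-II genes, which present antigen to CD4+ T cells, had a median difference of -1.60, and 8 of 11 passed the rule lower and 0 higher. H2-Eb1 was at 6.42 and 6.29 in the CT libraries and 3.56 in T2DM (difference -2.79). H2-Ab1 was at 8.21 and 8.19 in the CT libraries and 6.16 in T2DM (difference -2.04). Cd74, the invariant chain, was at 10.24 and 10.26 in the CT libraries and 8.52 in T2DM (difference -1.73). These chains were lower by amounts many times the CT spread. H2-DMa, a chain that loads peptides, was at 7.72 and 7.70 in the CT libraries and 7.71 in T2DM (difference 0.00). H2-DMb2 was at 4.06 and 3.41 in the CT libraries and 4.78 in T2DM (difference 1.04). It shares 36.4% of its 31-base sequences with other genes, mostly H2-DMb1, so how the estimate was split is uncertain. In T2DM Ly6C-low MCs the same list had a median of 0.18, with 0 genes past the rule lower, and T1DM Ly6C-high MCs had 0.44. H2-Eb1, for example, was at 8.69 and 8.63 in CT Ly6C-low and 8.55 in T2DM Ly6C-low MCs. H2-Ea-ps, annotated as a pseudogene in the C57BL/6 reference, was at 1.54 and 1.54 in CT and 4.41 in T2DM, a difference of 2.87, and at 8.70 in T2DM Ly6C-low MCs. It was at 1.54 and 2.93 in the CT Ly6C-low libraries. Both db/db libraries thus lay above the CT libraries of their subset, and its part in the MHC-II differences was not tested.

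B cells and dendritic cells also express MHC-II genes, and their markers were counted beside the list. Of the 20 B cell markers, 17 were lower, 1 past the rule, and on the linear scale they summed to 721 and 731 in CT and 609 in T2DM. Of the 8 dendritic cell markers, 5 were lower past the rule, with sums of 136 and 154 in CT and 89.1 in T2DM. Only 1 of the 8 had a level of at least 5, and it did not pass. Cd209a, a lectin of dendritic cells that derive from MCs, was at 5.14 and 5.43 in the CT libraries and 2.70 in T2DM (difference -2.59). Fewer cells of a type and less RNA per cell cannot be told apart in such bulk libraries, and the part of these cells in the MHC-II values was not tested.

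Granule proteins and alarmins, which kill microbes or call in neutrophils, were higher in T2DM. Of 20 genes in the table, 12 passed the rule higher, where 3.51% of all entries did, and 2 lower, with a median of 1.57. Of the 10 with a level of at least 5, 5 passed higher and 0 lower. Lcn2, the iron-scavenging lipocalin 2, was at 3.17 and 1.90 in the CT libraries and 8.71 in T2DM (difference 6.18). S100a8, a chain of the alarmin calprotectin, was at 1.14 and 1.15 in the CT libraries and 6.90 in T2DM (difference 5.76). S100a9, its partner chain, was at 0.62 and 1.23 in the CT libraries and 5.52 in T2DM (difference 4.60). These 3 were low in CT and reached moderate levels in T2DM. Slpi, a protease inhibitor, was at 4.02 and 3.97 in the CT libraries and 6.72 in T2DM (difference 2.72). Mmp8, a collagenase stored in granules, was at 7.28 and 7.15 in the CT libraries and 9.70 in T2DM (difference 2.48). Chil3, a chitinase-like protein of classical MCs, was at 10.37 and 10.39 in the CT libraries and 11.67 in T2DM (difference 1.29), with 41.5% of its 31-base sequences shared. Genes that were already high in CT, such as Mmp8 and Chil3, were thus higher as well as the low ones. Mpo and Prtn3, enzymes of the first granules made in the marrow, differed by 3.04 and 2.48, both at a level under 5. The 8 progenitor markers in the table, which include both, summed to 22.7 and 22.1 in CT and 51.2 in T2DM on the linear scale. Lyz2, the lysozyme of myeloid cells, was at 15.00 and 15.02 in the CT libraries and 15.64 in T2DM (difference 0.62).

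A pair of neutrophil genes on the list went the other way. Retnlg, a resistin-like protein of neutrophils, was at 1.98 and 1.46 in the CT libraries and -1.55 in T2DM (difference -3.27). Padi4, the enzyme that citrullinates histones, was at 4.53 and 5.07 in the CT libraries and 1.52 in T2DM (difference -3.28). The neutrophil receptor Cxcr2 was at 3.07 and 2.81 in the CT libraries and 2.79 in T2DM (difference -0.14) and did not pass. Neutrophil markers as a whole had 7 of 12 past the rule higher and 2 lower, with sums of 669 and 656 in CT and 2106 in T2DM, to which Mmp8 and Csf3r add most. That list shares 9 genes with the granule list. The sort gate left out Ly6G+ cells, and the part of neutrophils or their precursors was not tested. T1DM Ly6C-high MCs shared part of this. There 7 of the 20 granule genes were higher than both CT libraries past the rule and 1 lower, with a median of 0.22. Of 12 neutrophil markers 6 were higher past the rule, with a median of 1.03. Of all entries, 2.8% passed higher in that library and 2.58% lower. With T1DM in place of CT, the T2DM median of the granule list was 0.91. In T1DM Lcn2 was at 2.12, S100a8 at 2.49, S100a9 at 3.55 and Mmp8 at 6.99. In T2DM Ly6C-low MCs S100a8 was at 3.88 against 1.61 and 2.07 in CT, so it was higher there as well.

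**Figure D3:**
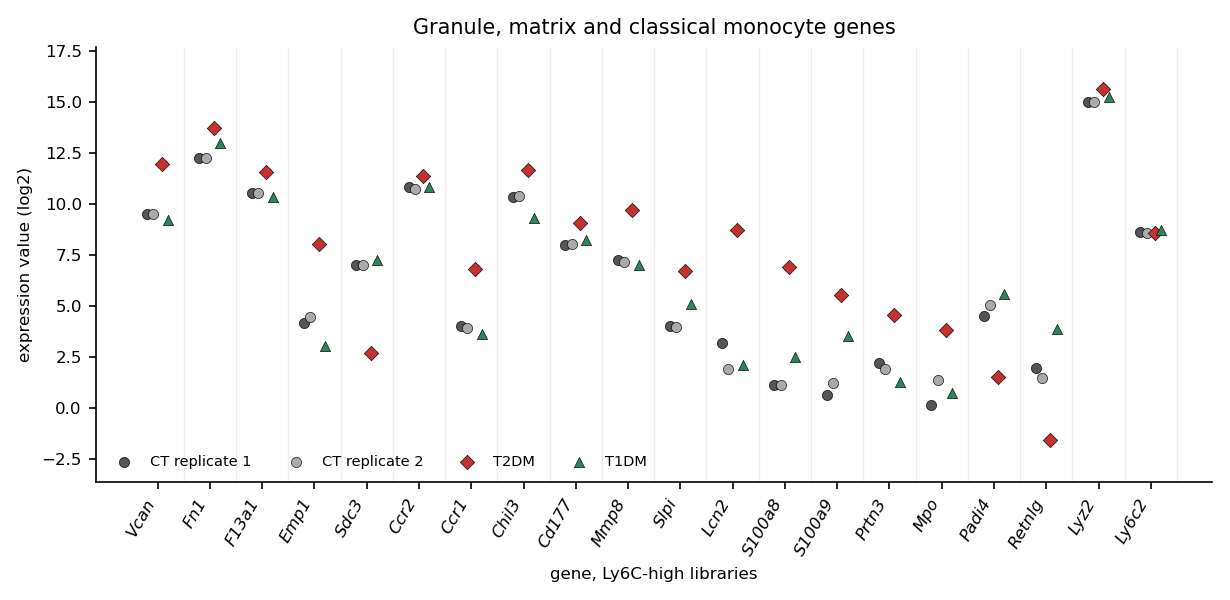
Log2 expression values of 20 granule, matrix and classical MC genes in the Ly6C-high libraries, 1 point per library. T2DM (red diamonds) lies above both CT libraries (grey circles) for most genes, below them for Sdc3, Padi4 and Retnlg, and on them for Ly6c2.

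Other genes of activated myeloid cells were among the 20 largest higher differences at a level of at least 5. Emp1, an epithelial membrane protein, was at 4.18 and 4.48 in the CT libraries and 8.05 in T2DM (difference 3.72). Ccr1, a receptor for inflammatory chemokines, was at 4.01 and 3.92 in the CT libraries and 6.81 in T2DM (difference 2.85). Fpr2, a receptor for formyl peptides and for serum amyloid A, was at 5.41 and 4.93 in the CT libraries and 7.44 in T2DM (difference 2.27), and 43% of its 31-base sequences occur in other genes. Each of these was also higher in T2DM than in the T1DM library, which had 3.03 for Emp1, 3.64 for Ccr1 and 4.25 for Fpr2. Saa3, a serum amyloid A protein, was at 4.34 and 4.41 in the CT libraries and 7.07 in T2DM (difference 2.69). Tarm1, an activating receptor of myeloid cells, was at 4.17 and 3.99 in the CT libraries and 6.58 in T2DM (difference 2.51). Colec12, a scavenger receptor, was at 4.89 and 4.30 in the CT libraries and 7.21 in T2DM (difference 2.61). All 3 were 4-fold or more above the CT mean. Fpr1, the main formyl peptide receptor and not on a list, was at 2.55 and 2.56 in the CT libraries and 5.44 in T2DM (difference 2.89).

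Matrix and adhesion genes had a median difference of 0.41, with 6 past the rule higher and 2 lower of 22, but with T1DM in place of CT the median was -0.05. Vcan, the proteoglycan versican, was at 9.49 and 9.53 in the CT libraries and 11.97 in T2DM (difference 2.46). Fn1, fibronectin, was at 12.26 and 12.24 in the CT libraries and 13.74 in T2DM (difference 1.49). F13a1, the clotting factor that crosslinks fibrin, was at 10.52 and 10.53 in the CT libraries and 11.58 in T2DM (difference 1.05). These are typical genes of classical MCs, and their CT libraries hardly differed. Thbs1 was at 7.61 and 7.64 in the CT libraries and 8.75 in T2DM (difference 1.13). Sdc3, a cell surface proteoglycan, was at 7.01 and 7.00 in the CT libraries and 2.70 in T2DM (difference -4.30) and had the largest lower difference of the list. Itgax, the integrin chain CD11c, was at 5.33 and 4.52 in the CT libraries and 3.25 in T2DM (difference -1.67). Among trafficking genes 1 passed higher, the Ccr1 above, and 3 lower, which were Pecam1, Spn and S1pr1 with differences of -1.81, -1.58 and -1.29.

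Markers of the classical subset were higher and those of the nonclassical subset lower in T2DM. Of 12 classical markers, 5 passed higher and 0 lower, with a median of 0.88. Among those 5 are Vcan, Fn1 and F13a1 of the matrix list and Chil3 of the granule list, so the count largely repeats genes given above. Of 13 nonclassical markers, 0 passed higher and 7 lower, with a median of -1.07. The T1DM Ly6C-high library had 3 nonclassical markers lower past the rule, where 2.58% of all entries were, and a median of -0.54. With T1DM in place of CT the T2DM median of the nonclassical markers was -0.31. For classical markers the T1DM median was -0.00. Ace, angiotensin-converting enzyme, was at 8.824 and 8.998 in the CT libraries and 6.75 in T2DM (difference -2.16). Cd300e was at 3.29 and 3.54 in the CT libraries and 1.64 in T2DM (difference -1.77). Nr4a1, the factor that Ly6C-low MCs need, was at 8.11 and 8.08 in the CT libraries and 7.03 in T2DM (difference -1.07). Each of these lay below both CT libraries by more than 1. In the classical list Fcgr1, the receptor CD64 and itself interferon-inducible, was lower, at 6.74 and 6.76 in the CT libraries and 5.82 in T2DM (difference -0.93).

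This direction was followed over all genes with a level of at least 5, ordering them by the T1DM pair of libraries, which takes no part in the comparison. Genes of the interferon-stimulated and GTPase lists were left aside. The 138 genes more than 2 higher in T1DM Ly6C-high than in T1DM Ly6C-low MCs had a median T2DM difference of 0.33, with 91 of them higher (65.9%). The 521 genes that were 1 to 2 higher had a median of 0.14, with 68.1% higher. The 4509 genes within 1 had a median of 0.04, with 55.8% higher. The 116 genes that were 1 to 2 lower in T1DM Ly6C-high MCs had -0.22, with 37.1% higher. The 22 genes more than 2 lower had -0.13 with an interquartile range from -0.56 to 0.37. The medians thus followed the order by subset except in the last and smallest group, where 11 genes were higher, and the shares did not follow it at either end. Interferon genes went against it, since the 7 that were more than 2 higher in T1DM Ly6C-high MCs had a median T2DM difference of -2.61.

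Markers of cells that a sorted MC sample can still hold were lower in T2DM for most lineages. All 16 NK cell markers were lower, 12 past the rule, and their linear values summed to 161 and 176 in CT and 58.8 in T2DM. Gzmb, a killer protease of NK cells, was at 3.11 and 3.02 in the CT libraries and 0.51 in T2DM (difference -2.56). All 14 platelet markers were lower, 7 past the rule, with sums of 806 and 758 in CT and 333 in T2DM. Ppbp, a platelet chemokine, was at 8.27 and 8.03 in the CT libraries and 6.68 in T2DM (difference -1.47). T cell markers had 8 of 20 past the rule lower and sums of 72.1 and 75.4 in CT and 51.4 in T2DM. Of the NK cell and T cell markers, 0 had a level of at least 5. Erythroid markers had 0 past the rule and sums of 21020 and 20776 in CT and 16868 in T2DM. In the T1DM Ly6C-high library the sums were 208 for NK cell, 1237 for platelet, 38464 for erythroid and 58.9 for T cell markers, of which the T cell sum lay below both CT libraries. In T2DM Ly6C-low MCs NK cell markers summed to 297, against 1121 and 1110 in CT. Eosinophil and basophil markers had 1 gene each past the rule, Ccr3 and Fcer1a, both lower. Macrophage markers had 3 lower past the rule and progenitor markers 3 higher, which were Mpo, Prtn3 and Cebpe, and 2 lower, Kit and Gfi1.

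Plasmacytoid dendritic cells, which make type I interferon, were looked for beside the interferon result. Of their 7 markers in the table, 2 were lower past the rule, and their sums were 475 and 374 in CT and 365 in T2DM. Only 2 of the 7 had a level of at least 5, so the sums rest on few markers. The list also holds Irf8 and Tcf4, which stand on other lists here as well, so the sums do not measure these cells. Siglech, a defining marker, was at 0.24 and 0.32 in the CT libraries and -0.02 in T2DM (difference -0.30). Bst2, another marker, is itself an interferon-stimulated gene and was at 3.47 and 4.04 in the CT libraries and 1.72 in T2DM (difference -2.03). The part of these cells, and that of NK cells as a source of interferon gamma, was not tested.

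**Figure D4:**
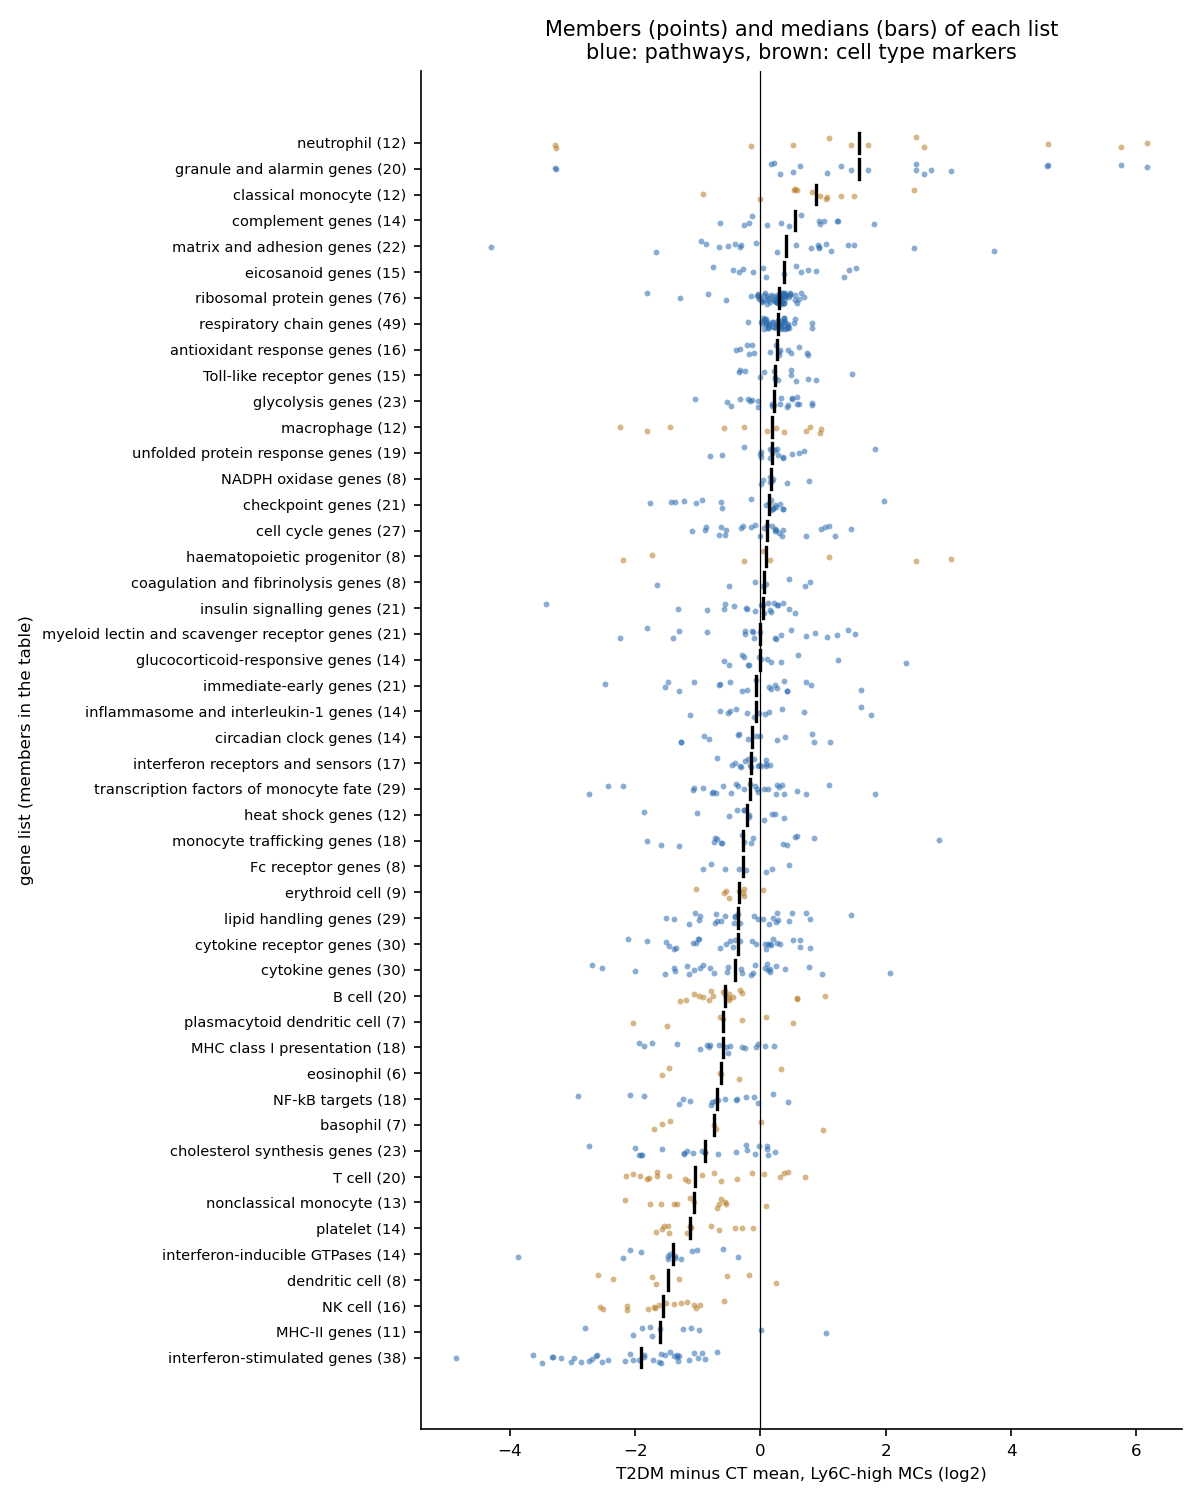
Each point is 1 gene of a list, placed by its T2DM minus CT difference (log2), and each bar is the median of its list, for pathways (blue) and cell type markers (brown). Medians run from -1.90 for interferon-stimulated genes to 1.57 for granule and alarmin genes, and respiratory chain and ribosomal protein genes form narrow groups just above 0.

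NF-kB targets were lower more often than higher, with a median of -0.70, 5 of 18 past the rule lower and 0 higher. Those past the rule were Cd83, Traf1, Nfkbie, Cd40 and Bcl2a1b. Of the 9 members with a level of at least 5, 1 passed. Cd83, a marker of mature antigen-presenting cells, was at 2.13 and 2.21 in the CT libraries and -0.75 in T2DM (difference -2.92). Cd40, the costimulatory receptor, was at 4.93 and 4.73 in the CT libraries and 3.59 in T2DM (difference -1.24). Tnf, the inflammatory cytokine of the list, was at 3.92 and 3.84 in the CT libraries and 4.09 in T2DM (difference 0.21) and did not pass. Inflammasome and interleukin-1 genes had 1 of 14 past the rule, Il18, with -1.12, and a median of -0.07. Il1b was at 4.91 and 5.22 in the CT libraries and 5.76 in T2DM (difference 0.70). Toll-like receptor genes had a median of 0.24, and Tlr5, the flagellin receptor, passed at 3.78 and 2.92 in the CT libraries and 4.81 in T2DM (difference 1.46).

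Cytokine genes had a median of -0.41, with 7 of 30 lower past the rule and 1 higher. Of the 5 with a level of at least 5, 1 passed lower and 0 higher. Il15, which keeps NK cells alive and is interferon-inducible, was at 4.08 and 4.04 in the CT libraries and 2.05 in T2DM (difference -2.01). Csf1, the growth factor of MCs and macrophages, was at 2.51 and 3.15 in the CT libraries and 0.13 in T2DM (difference -2.70). Tnfsf10, the death ligand TRAIL, was at 3.99 and 3.24 in the CT libraries and 2.09 in T2DM (difference -1.52). All 3 were lower in T2DM, though Csf1 and Tnfsf10 had CT libraries over 0.5 apart. Of 30 cytokine receptor genes, 5 passed lower and 0 higher, and Il2rb and Il12rb2 among them are also expressed by NK cells. Csf2ra, a chain of the receptor for GM-CSF, was at 7.77 and 7.85 in the CT libraries and 8.07 in T2DM (difference 0.26). Csf3r, the receptor for G-CSF, was at 8.84 and 8.83 in the CT libraries and 9.36 in T2DM (difference 0.52). Neither passed. Of 21 checkpoint genes, 1 passed higher and 2 lower, where 3.51% and 5.15% of all entries did, with a median of 0.13. The higher gene was Nectin2, at 0.08 and 0.30 in the CT libraries and 2.17 in T2DM (difference 1.98). Sema4a was at 7.65 and 7.61 in the CT libraries and 7.83 in T2DM (difference 0.20).

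Lectin and scavenger receptors differed both ways, with 4 of 21 past the rule higher and 4 lower. The higher ones were Clec4d, Clec5a, Clec4e and Msr1, which include sensors of microbial glycolipids and, in Msr1, a receptor that takes up modified lipoproteins, with differences of 1.51, 1.40, 1.06 and 1.23. The lower ones were Siglec1, Mrc1, Clec4b1 and Clec10a. Siglec1, an interferon-inducible sialic acid receptor, was at 5.76 and 5.87 in the CT libraries and 3.57 in T2DM (difference -2.24). Complement genes had 3 past the rule higher and 0 lower. C5ar1, the receptor for the fragment C5a, was at 5.48 and 5.32 in the CT libraries and 7.22 in T2DM (difference 1.82). Cfp, properdin, was at 5.57 and 5.73 in the CT libraries and 6.87 in T2DM (difference 1.22), so both a receptor and a soluble activator were higher. Of eicosanoid genes, Pla2g7 and Pla2g4a, which are phospholipases, passed higher with 1.41 and 1.52.

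Transcription factors of MC fate had a median of -0.17, with 2 of 29 past the rule higher and 3 lower. Of all entries, 3.51% passed higher and 5.15% lower. Id2, an inhibitor of other factors, was at 5.09 and 5.30 in the CT libraries and 7.03 in T2DM (difference 1.84). Cebpe, a factor of granulocyte maturation, was at 0.39 and 0.40 in the CT libraries and 1.49 in T2DM (difference 1.09), low in both groups. Bach2, a repressor best known from lymphocytes, was at 3.87 and 5.52 in the CT libraries and 1.96 in T2DM (difference -2.74), with CT libraries that differed widely. The factors of myeloid identity were closer to CT. Spi1 was at 9.10 and 9.09 in the CT libraries and 9.21 in T2DM (difference 0.12). Cebpa was at 6.25 and 6.17 in the CT libraries and 6.48 in T2DM (difference 0.27). Cebpb, which Ly6C-low MCs depend on, was at 5.41 and 5.42 in the CT libraries and 4.65 in T2DM (difference -0.77). Myc was at 2.76 and 3.13 in the CT libraries and 3.24 in T2DM (difference 0.30). None of these 4 passed the rule.

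Genes of the cholesterol synthesis list, which the factor Srebf2 switches on when cell sterols are low, were lower in T2DM. Of 23 genes, 19 were lower and 7 passed the rule, none higher, with a median of -0.89. Only 4 of the 23 had a level of at least 5, and 1 of these passed. Sqle, the squalene epoxidase, was at 4.25 and 4.71 in the CT libraries and 2.59 in T2DM (difference -1.89). Idi1, an isomerase of the same pathway, was at 4.39 and 3.98 in the CT libraries and 2.25 in T2DM (difference -1.93). Fdps, which makes farnesyl diphosphate, was at 3.60 and 3.72 in the CT libraries and 2.49 in T2DM (difference -1.17). In all 3 the T2DM value was more than 1 below the nearer CT library. Stard4, a sterol carrier, and Pmvk, a kinase of the mevalonate pathway, passed as well, with -1.22 and -1.91. Srebf2 itself was at 6.77 and 6.56 in the CT libraries and 5.59 in T2DM (difference -1.07) and Insig1, its feedback target, at 5.26 and 5.41 in the CT libraries and 4.45 in T2DM (difference -0.88). The T1DM median was 0.02 and that of T2DM Ly6C-low MCs 0.01, with 0 and 0 genes lower past the rule. Among lipid handling genes, Apoe, which carries lipid out of the cell, was higher at 8.81 and 8.73 in the CT libraries and 10.21 in T2DM (difference 1.44), and Nr1h3, the oxysterol receptor LXR alpha, was lower at 2.24 and 2.11 in the CT libraries and 0.67 in T2DM (difference -1.50) and lower still in T1DM at 0.01.

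Respiratory chain genes were higher by a small and even amount. 48 of 49 were above the CT mean and 43 above both CT libraries, with a median of 0.28, and 0 passed the rule. Against T1DM in place of CT the median was 0.24. Ribosomal protein genes had a median of 0.29, with 66 of 76 higher and 2 past the rule lower. Against T1DM that median was 0.03, so the ribosomal difference was shared with the other library of the same sequencer. Glycolysis genes had a median of 0.21 and 0 past the rule. Genes of the unfolded protein response, antioxidant response, NADPH oxidase and Fc receptors had 0 past the rule, with medians of 0.18, 0.27, 0.17 and -0.29.

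Lists of hormone signalling, cell stress and the cell cycle held few calls, where 3.51% of all entries passed higher and 5.15% lower. Insulin signalling genes had a median of 0.04, and 1 of 21 passed, Cish, a brake on cytokine signalling whose CT values were -0.14 and 3.03, far apart. Insr, the insulin receptor, was at 7.70 and 7.57 in the CT libraries and 7.67 in T2DM (difference 0.04). Glucocorticoid-responsive genes had 2 of 14 past the rule higher, Fkbp5 and Mt1, with 1.25 and 2.32, and a median of -0.01. Clock genes had 2 of 14 lower, Tef and Nr1d2, with -1.27 and -1.26. Immediate-early genes, which rise within minutes of cell handling, had a median of -0.06, with 1 higher (Ier3, 1.61) and 3 lower (Egr2, Dusp2 and Nr4a1, -1.53, -2.48 and -1.07) of 21. Cell cycle genes had 2 of 27 past the rule, Aurka and Bub1b, higher by 1.10 and 1.45, with a median of 0.10. Heat shock genes had 2 of 12 lower, the near-identical pair Hspa1a and Hspa1b with -1.02 and -1.85. Coagulation genes had 0 past the rule.

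Of the 20 largest higher differences at a level of at least 5, 9 were pseudogenes or copies of expressed genes, against 1 of the 20 largest lower ones. Gm13394 shares 97.5% of its 31-base sequences with other genes, mostly Gapdh, and was at 4.31 and 0.98 in the CT libraries and 9.14 in T2DM (difference 6.50). Gm10260 shares 78.2%, mostly with Rps18, and was at 2.89 and 2.46 in the CT libraries and 7.78 in T2DM (difference 5.10). Tpm3-rs7, which shares 78.6% mostly with Tpm3, was at 5.00 and 4.91 in the CT libraries and 8.70 in T2DM (difference 3.75). Each was also high in T2DM Ly6C-low MCs, at 8.09, 7.16 and 8.37, and they were at 0.89, 0.97 and 4.14 in T1DM Ly6C-high MCs. The gene that resembles a copy was often lower. Rps18 was at 7.48 and 7.52 in the CT libraries and 5.69 in T2DM (difference -1.81). Rpsa was at 8.92 and 8.91 in the CT libraries and 7.63 in T2DM (difference -1.28), while its copy Rpsa-ps10 was at 1.97 and 1.97 in the CT libraries and 6.94 in T2DM (difference 4.98). Summed on the linear scale, Rps18 with Gm10260 differed by 0.53, Rpsa with Rpsa-ps10 by -0.60, Rpl3 with Rpl3-ps1 by -0.08 and Tpm3 with Tpm3-rs7 by 0.29. For the pairs whose parent gene was higher, Rpl14 with Rpl14-ps1 differed by 0.74, Gapdh with Gm13394 by 0.95 and Rps2 with Rps2-ps10 by 1.02. Rps18 and Rpsa are the 2 ribosomal protein genes past the rule. How the estimate divides reads between a gene and its copy is uncertain, and T2DM differences of such genes are not read as expression.

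**Figure D5:**
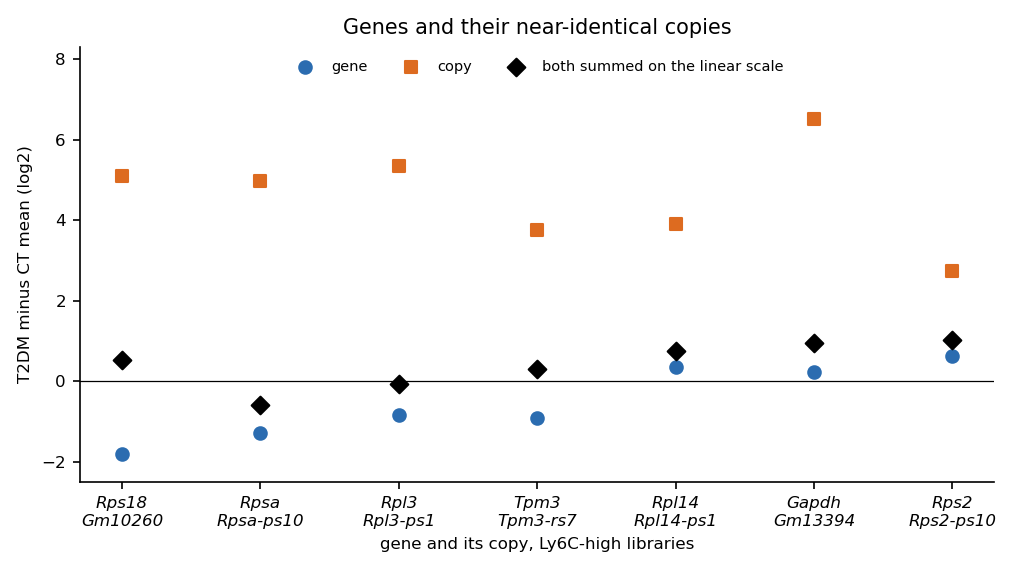
T2DM minus CT differences (log2) in Ly6C-high MCs of 7 genes (circles), of a near-identical copy of each (squares) and of both summed on the linear scale (diamonds). Copies lie between 2.74 and 6.50, and the sums between -0.60 and 1.02.

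The largest lower differences among genes with a level of at least 5 held 6 genes of the interferon lists. Others near them were Ifi213 and Ifi205, DNA sensors of the interferon-inducible p200 family, with -2.66 and -2.59. Lgals3bp, a secreted glycoprotein that is also interferon-inducible, was at 7.59 and 7.58 in the CT libraries and 5.14 in T2DM (difference -2.44). Hpgd, which breaks down prostaglandins, was at 7.01 and 6.88 in the CT libraries and 4.42 in T2DM (difference -2.52). Padi2, which citrullinates proteins like Padi4, was at 7.32 and 7.25 in the CT libraries and 4.99 in T2DM (difference -2.29). For these 3 the T1DM library was at or above CT, with 7.75, 7.96 and 7.43.

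Over all calls with a level of at least 5, the other T2DM library shared part of the pattern. Of the 67 higher genes, 52 were also above the CT mean in Ly6C-low MCs and 20 passed the same rule there, where 2.94% of all entries did. Of those 20, 8 were pseudogenes or copies of expressed genes. Of the 101 lower genes, 74 were also below and 13 passed, where 3.6% of all entries did. Of those 13, 0 were pseudogenes or copies of expressed genes. The share of all genes on the same side in both subsets was not counted. The Ly6C-low libraries come from the same mice and sequencers but share no CT library with the Ly6C-high comparison. In T1DM Ly6C-high MCs, where 2.8% of all entries passed higher, the 67 genes had a median difference of -0.23 and the 101 a median of 0.06. The Y-linked genes Eif2s3y, Ddx3y and Kdm5d were higher in both diabetic Ly6C-high libraries although all mice are given as male, and Uty, with 4.26 and 2.68 in CT and 4.55 in T2DM, was not clearly so. Eif2s3y was at 2.39 and 2.96 in CT and 6.25 in T2DM, a difference of 3.58, and at 6.32 in T1DM.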

How the data were processed

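Peripheral blood MCs of 6 groups were measured by bulk RNA sequencing in 8 libraries. Per the labels and methods, the authors aligned reads to mm10 transcripts with Kallisto 0.45 and summed them to genes with tximport 1.12.3, working under R 3.6.1. The deposited table holds 16486 entries with log2 expression values, without counts, so the depth behind a value is unknown. The scaling, any filter on low values and any batch adjustment are not given in the sources used here. A total of 21 entries whose symbols a spreadsheet had turned into dates were counted but not named.

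The T2DM Ly6C-high value was compared with both CT Ly6C-high values in Python 3.11.15 with pandas 2.3.3, with no significance test. The rule asked for a distance of more than 1 on the log2 scale beyond both CT libraries. Named are Lepr, up to about 6 members per gene list and further members past the rule, though not all of them. Also named are genes the study discusses and genes among the 20 largest differences each way at a level of at least 5. Fpr1, H2-Ea-ps, H2-K2, Rpsa-ps10, Rpl3-ps1 and the Y-linked genes were chosen after their values were seen. The members and lists were chosen with earlier results of these data known. A 31-base sequence was called shared when it occurred in a transcript of another gene of the reference annotation. Alternatives were an added constant of 1, quantile normalization, median centring, leaving out either CT library, a level of at least 5, the CT mean alone, and limma 3.58.1 in R 4.3.3 over all 8 libraries. The T1DM library in place of CT was added after seeing the data. The rule and the limma step were tested on simulated data.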

Additional observations from a re-analysis of the deposited data

Results flagged for a closer look

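A total of 8 of the 757 genes looked at, and 138 of all entries, lay past both CT libraries by more than 1 in opposite directions in the Ly6C-high and Ly6C-low subsets. Each subset had 1 T2DM library, so the difference between subsets was not tested. The T2DM minus CT difference of Csf1 was -2.70 in the Ly6C-high and 2.46 in the Ly6C-low subset. That of Retnlg was -3.27 and 2.32, that of Ccr3 -1.46 and 2.22, and that of Acvr2b -1.82 and 1.37. The lectin receptors Mrc1, Clec10a and Clec4b1 had -1.81, -1.30 and -1.40 in the Ly6C-high subset, with 1.33, 1.67 and 1.63 in the other. Rpl10a-ps1 had 3.04 and -1.38, and all of its 31-base sequences occur in other genes.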

How the results depend on the processing

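The counts of genes past the rule, 579 higher and 849 lower, depended on how low values were treated. Adding 1 on the linear scale gave 321 and 357, a level of at least 5 gave 67 and 101, and a distance of more than 1 from the CT mean alone gave 982 and 1301. Quantile normalization gave 529 and 720 and median centring 558 and 883, which are within 1.5 times of the counts reported. Leaving out either CT library gave 1235 to 1293 higher and 1533 to 1537 lower. The T1DM library in place of CT gave 1395 and 1780. In limma over all 8 libraries, where the lone T2DM library is assumed to vary like the other groups, 0 genes were higher and 0 lower at an adjusted p under 0.01 and a difference over 1, with a smallest adjusted p of 0.0134. It gave 53 and 111 at an adjusted p under 0.05 and 1245 and 1449 at an unadjusted p under 0.05. These looser counts carried no limit on the size of the difference. With the T1DM library in place of CT, the differences of Egr2, Nr1h3 and Eif2s3y changed sign to 0.68, 0.66 and -0.066, and the matrix list median to -0.05. All 112 named genes past the rule kept their sign under quantile normalization and median centring. Under the added constant and either single CT library their sign could not change, because the rule already sets T2DM beyond both CT libraries. For list medians the sign was not fixed in this way. The median of 5 of the 48 lists changed sign in at least 1 of these alternatives, namely immediate-early, checkpoint, lectin and scavenger receptor, cell cycle and macrophage genes. No paired analysis was possible because T2DM had 1 library, so the groups share fewer than 2 replicate numbers. Without counts, the precision of a low value is unknown.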
